A study of Mus musculus with 9 samples.

Results

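Cytosolic ribosomal protein genes were examined in RNA from pancreatic islets of male mice. Members were the genes of the deposited table whose symbol is Rpl or Rps followed by a number, with an optional suffix a, x, y, l or l1, and Rplp0, Rplp1, Rplp2 and Rpsa. The rule used no measured value and gave 83 of 23329 genes, of which 51 are named for the large subunit and 32 for the small. Polyadenylated RNA was sequenced in 4 libraries titled as controls, with the genotype Pdx1+/-, and 5 titled as mutants, with the genotype Pdx1A4, which the labels do not explain. Pdx1 is a transcription factor of the pancreas and the beta cell, and the controls carry an altered Pdx1 genotype too. The sources used here do not give age, strain background, islet culture or any batch for these libraries. The groups are called control and mutant, and libraries are numbered as in their titles.

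Each cytosolic ribosome holds 1 copy of nearly every member, arranged on ribosomal RNA in a large subunit, which joins amino acids, and a small subunit, which reads the messenger RNA. Many of these genes start transcription within a run of pyrimidines. The resulting terminal oligopyrimidine (TOP) messengers are held back or released together by mTORC1 and the RNA-binding protein Larp1. In the pancreas, acinar cells make digestive enzymes on a dense rough endoplasmic reticulum, and islet beta cells make insulin, so both depend on a large ribosome supply.

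The start regions of 8 genes show the letters behind these terms. They were chosen to span large rises (Rps18, Rps26), high levels (Rpl4, Rps6), a library order of its own (Rpl38), 2 genes named as forms of another (Rpl22l1, Rpl7l1) and a related gene just outside the rule (Rpl36al). Each runs 5′ to 3′ on the gene's strand from 40 bases before the annotated RefSeq start to 30 bases from it, in build GRCm38.p6. Capitals mark the letters CCGGAAG, the core bound by ETS factors, on either strand, and runs of at least 8 pyrimidines.
Rps18 (chr17:33955636-33955705, minus strand): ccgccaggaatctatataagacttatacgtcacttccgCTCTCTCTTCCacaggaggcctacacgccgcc
Rps26 (chr10:128626477-128626546, minus strand): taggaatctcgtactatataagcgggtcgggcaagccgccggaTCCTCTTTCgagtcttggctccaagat
Rpl4 (chr9:64173347-64173416, plus strand): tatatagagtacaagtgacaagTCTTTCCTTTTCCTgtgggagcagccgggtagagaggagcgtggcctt
Rps6 (chr4:86857338-86857407, minus strand): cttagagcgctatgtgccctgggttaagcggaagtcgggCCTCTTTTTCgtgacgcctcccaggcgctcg
Rpl38 (chr11:114668540-114668609, plus strand): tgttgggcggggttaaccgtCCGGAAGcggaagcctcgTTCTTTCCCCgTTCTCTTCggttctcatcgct
Rpl22l1 (chr3:28805468-28805537, plus strand): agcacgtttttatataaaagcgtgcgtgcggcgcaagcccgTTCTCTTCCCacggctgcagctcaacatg
Rpl7l1 (chr17:46782627-46782696, minus strand): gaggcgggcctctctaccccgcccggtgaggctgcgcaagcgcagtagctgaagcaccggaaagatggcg
Rpl36al (chr12:69184038-69184107, minus strand): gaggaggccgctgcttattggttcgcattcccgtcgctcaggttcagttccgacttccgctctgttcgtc
In Rps18, Rps6 and Rpl38 the run of pyrimidines holds the annotated start, and Rpl38 also carries the ETS core. The windows of Rpl7l1 and Rpl36al hold neither feature.

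RefSeq promoters of 300 bases, 250 before the start and 50 from it, matched 63 of the 83 members and 27025 genes in all. A run of at least 8 pyrimidines on the gene's strand, between 20 bases before and 30 after the start, was present in 31 member promoters (49.2%) and in 18.8% of all promoters. In 15 of the 63 (23.8%) such a run held the start itself, against 3.81% of all promoters. CCGGAAG was present on either strand in 25 (39.7%) against 9.12%. The letters CTCTTTC were found in 27.0% against 8.01% and the YY1 core AAGATGG in 14.3% against 6.48%. The E-box CACGTG was found at 7.94% against 7.24%, and TATAAA at 9.52% against 14.2%. Matches on both strands were counted for these 5 motifs, and CTCTTTC can lie within a run of pyrimidines. Log2 fold changes of tested members differed little by these letters, with a median of 0.89 for the 31 with the run and 0.91 for the 29 without it, and of 0.86 for the 24 with the ETS core and 0.91 for the 36 without it. A match describes letters and is not a measured site, and its absence from a window says nothing about a factor.

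Libraries held 6092010 to 7375376 counts in controls and 7186462 to 9163253 in mutants. The labels do not say whether each library is from its own animal, so the p-values reflect library-to-library spread, which may be technical. CPM values are counts relative to library size after scaling by TMM, a method that aligns the libraries on the bulk of their genes. Its factors were 0.94 to 1.28 in controls and 0.81 to 1.04 in mutants. Pdx1 was at 36, 32, 23.8 and 26.2 CPM in controls 1 to 4 and 15.6, 4.18, 7.13, 17.8 and 19.9 CPM in mutants 1 to 5, with a log2 fold change of -1.18 (edgeR adjusted p = 0.0461), a call lost in 6 of 9 fits without 1 library, up to an adjusted p of 0.113. The 7 islet hormone genes (0 called) summed to 132970.4 to 218447 CPM in controls and 853 to 76824 in mutants. Each of the 7 had every mutant below every control, as did 1823 of the 12402 genes tested. The hormone sum was lowest in mutants 2 and 3, at 853 and 14888 CPM. In mutant 2 hormone genes made up 0.0691% of counts, against 16.9% to 21.0% in controls, so that library held few islet hormone transcripts. The 30 acinar genes, of which 28 were higher and 0 lower in mutants, summed to 14972 to 23982 CPM in controls and 85122 to 245183 in mutants. The 24 endocrine secretion genes (0 higher, 7 lower) summed to 23590.2 to 29717 CPM in controls and 234 to 13783 in mutants. For 22 of the 24 every mutant was below every control. The 15 ductal genes (7 higher, 2 lower) summed to 4814 to 13619 CPM in controls and 17969 to 30536 in mutants. Over all genes tested 20.6% were called higher and 11.8% lower. Markers of endothelial, macrophage, stellate and neural cells summed to at most 562 CPM per list in any library (2 stellate genes were lower and none of the others was called), and no marker of these lists was at 0 in all 9 libraries. In bulk RNA, fewer cells of a type and less RNA per cell cannot be told apart.

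The 83 genes together took a larger share of the mutant libraries. Their share of counts was 1.6%, 1.5%, 2.1% and 1.8% in controls 1 to 4. It was 2.11%, 3.03%, 2.85%, 2.13% and 2.74% in mutants 1 to 5. Every mutant was above every control, but mutants 1 and 4 were only just above control 3. The 95% Wilson interval was 2.1% to 2.12% for mutant 1 and 2.09% to 2.11% for control 3, and covers counting error only. It takes each read as an independent draw, and would be too narrow if some reads are duplicates. The mean was 1.75% ± 0.265 for controls (SD, n = 4) and 2.57% ± 0.425 for mutants (SD, n = 5), a ratio of 1.47. With hormone and acinar genes taken out of the total, the share was 2.22% ± 0.307 and 3.16% ± 0.545, a ratio of 1.42. On that total the groups overlapped, since mutant 1, at 2.53%, lay below control 3, at 2.65%, and mutant 4 was at 2.66%. Large-subunit genes gave 63.0% ± 1.25 of the ribosomal protein counts in controls and 62.0% ± 0.701 in mutants.

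**Figure D1:**
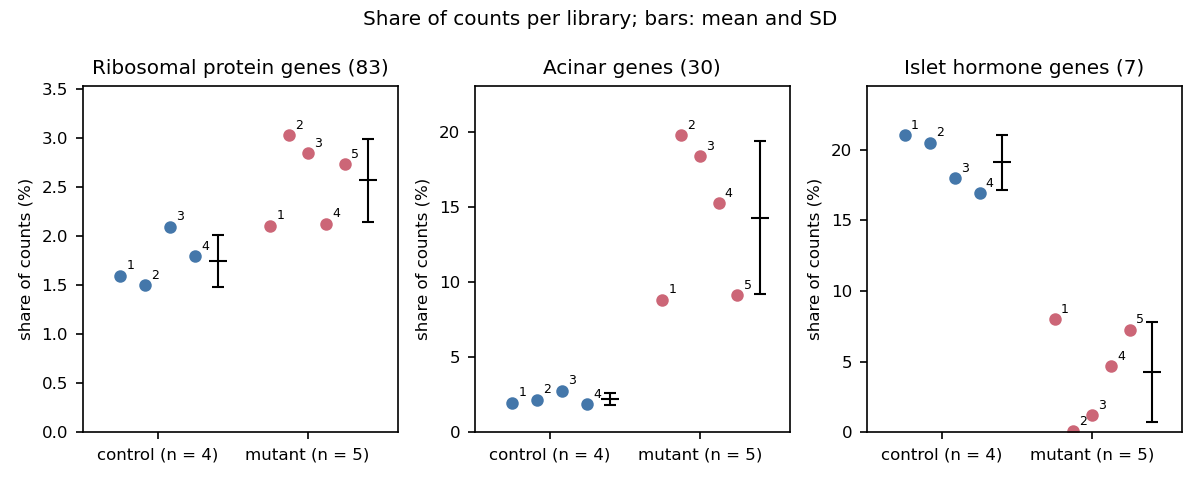
Share of counts (%, y axis) held by 83 ribosomal protein genes, 30 acinar genes and 7 islet hormone genes in each of 4 control and 5 mutant libraries (points, with replicate numbers; bars show the mean and SD). The ribosomal share was 1.5% to 2.1% in controls and 2.11% to 3.03% in mutants, with mutant 1 nearly equal to control 3. Mutant 2 was highest in ribosomal and acinar share and lowest in hormone share.

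Across single genes the rise was broad. Of the 83 members, 80 passed the low-count filter, 48 of the large subunit and 32 of the small. Of these, 75 were higher in mutants and 0 lower (edgeR's quasi-likelihood test, Benjamini-Hochberg adjusted p under 0.05 over 12402 genes), while 20.6% of all genes tested were higher and 11.8% lower. All 80 log2 fold changes were above 0, also with RLE scaling and with TMM factors computed without hormone or ribosomal protein genes. Their median was 0.90, with quartiles of 0.79 and 1.0, against a median of 0.04 over all genes. Every mutant was above every control for 57 of the 80 members, which is 71.2%, against 18.5% of all genes. Highly expressed genes, those 4297 with a mean CPM at or above that of the lowest tested member, were higher in 29.2%, with a median of 0.14. The unscaled share of counts was 1.47 times as high in mutants, and dividing by their mostly lower TMM factors raises their CPM further.

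The number of members called changed in fits with an acinar or endocrine score as a covariate and in fits without libraries. With the acinar score (mean log2 CPM of the 30 acinar genes) as a covariate, 0 members were called, 3 at an unadjusted p under 0.05, by edgeR, and 14 of 80 log2 fold changes stayed above 0. Group explained 92.2% of that score, so the acinar level and the genotype cannot be told apart in this fit. With the endocrine secretion score as a covariate, of which group explained 49%, 2 of 80 members were called, Rps28 among them, against 4.1% of all genes, and all 80 stayed above 0. Leaving out control 1 left 47 members called (13.3% of all genes were higher), leaving out mutant 3 left 46 (12.9%), and leaving out mutants 2 and 3 together left 35 (10.8%), with a median log2 fold change of 0.57 in the large and 0.67 in the small subunit. Of the 75 called members, 43 stayed called in every fit that left out 1 library. The same count was not taken over all genes, so this share has no background beside it. With RLE scaling 69 members were higher (17.4% of all genes), with DESeq2 76 (20.3%), and with limma-voom 78 (24.3%). The share of calls that were higher over all genes was 63.6%, 51.8% with RLE scaling and 49.6% with DESeq2, and the median of all genes moved from 0.04 to -0.06 in both.

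Libraries within a group differed in the same direction across most members. In log2 CPM, members of controls 1 to 4 deviated from the control mean by a median of -0.20, 0.05, 0.26 and -0.10. The same median reached 0.41, 1.23, 1.14, 0.76 and 0.79 for mutants 1 to 5. Mutant 2 was the highest mutant for 63 of the 80 members, mutant 3 for 9 and mutant 5 for 8. Mutant 1 was the lowest mutant for 70. Among controls, control 3 was highest for 66, and control 1 was the lowest of all 9 libraries for 49. Mutants 2 and 3 also had the largest acinar shares, 19.8% and 18.4%, against 8.85%, 15.3% and 9.16% in mutants 1, 4 and 5. The part of the acinar and hormone transcripts in the order of the libraries was not tested.

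**Figure D2:**
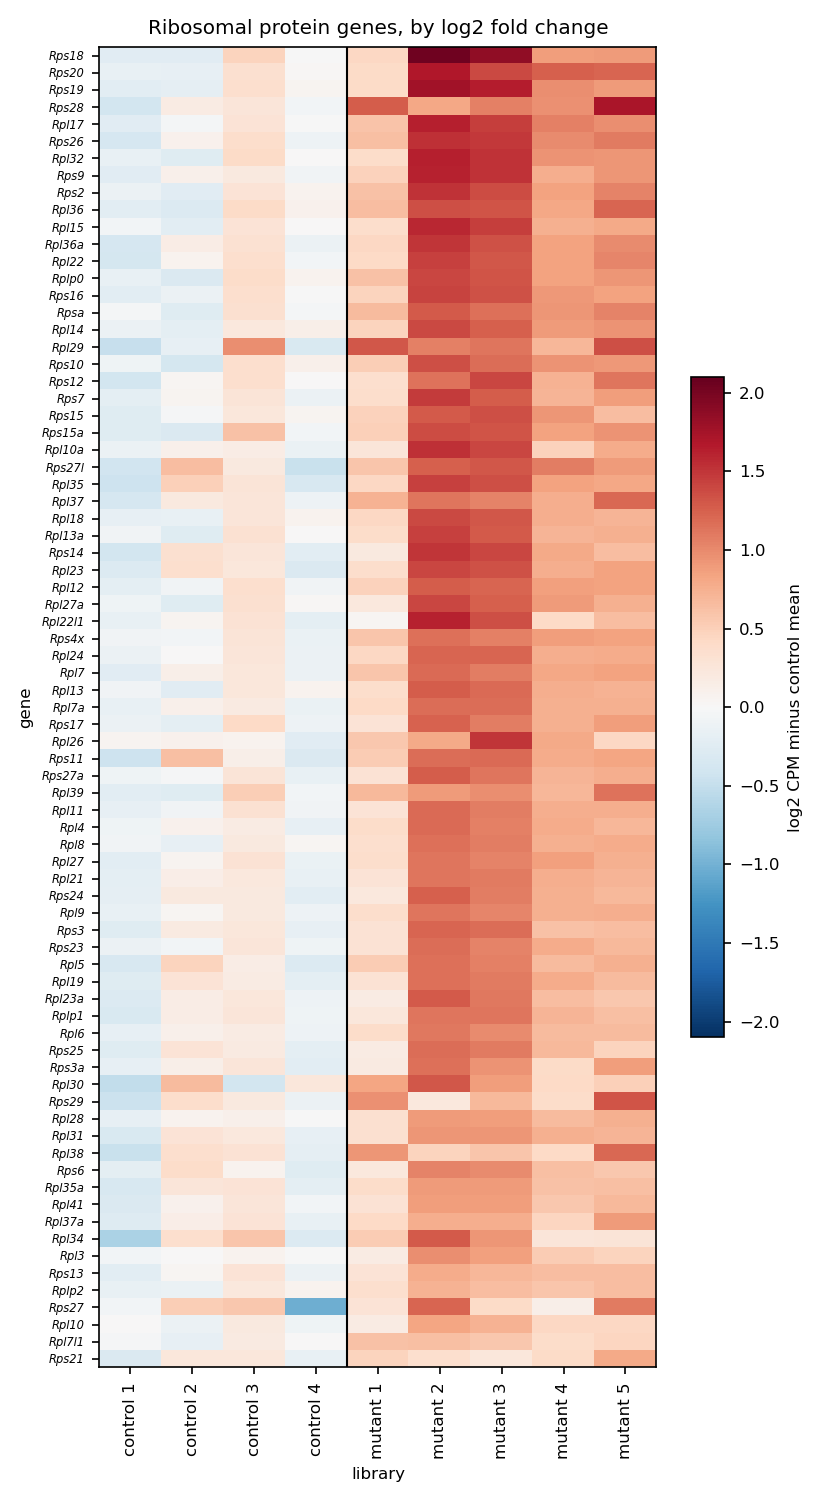
Log2 CPM minus the control mean (colour) for 77 of the 80 tested members (vertical axis, ordered by log2 fold change) in the 9 libraries (horizontal axis). The colour is mostly near 0 in controls, with exceptions such as Rps27 in control 4 (-1.02) and Rpl29 in control 3 (0.98). It is above 0 in all mutants, though as low as 0.04 for Rpl22l1 in mutant 1. It is deepest in mutants 2 and 3 for most members, with Rps28, Rps29 and Rpl38 deepest in mutant 5.

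Members of both subunits were higher. In the large subunit 46 of 48 tested members were higher, with a median log2 fold change of 0.86 and quartiles of 0.77 and 0.97. In the small subunit 29 of 32 were higher, with a median of 0.97 and quartiles of 0.82 and 1.11. The lowest values were 0.53 (Rpl7l1) and 0.45 (Rps21), the quartile ranges overlapped, and the difference between subunits was not tested. Standard errors of members had a median of 0.22.

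**Figure D3:**
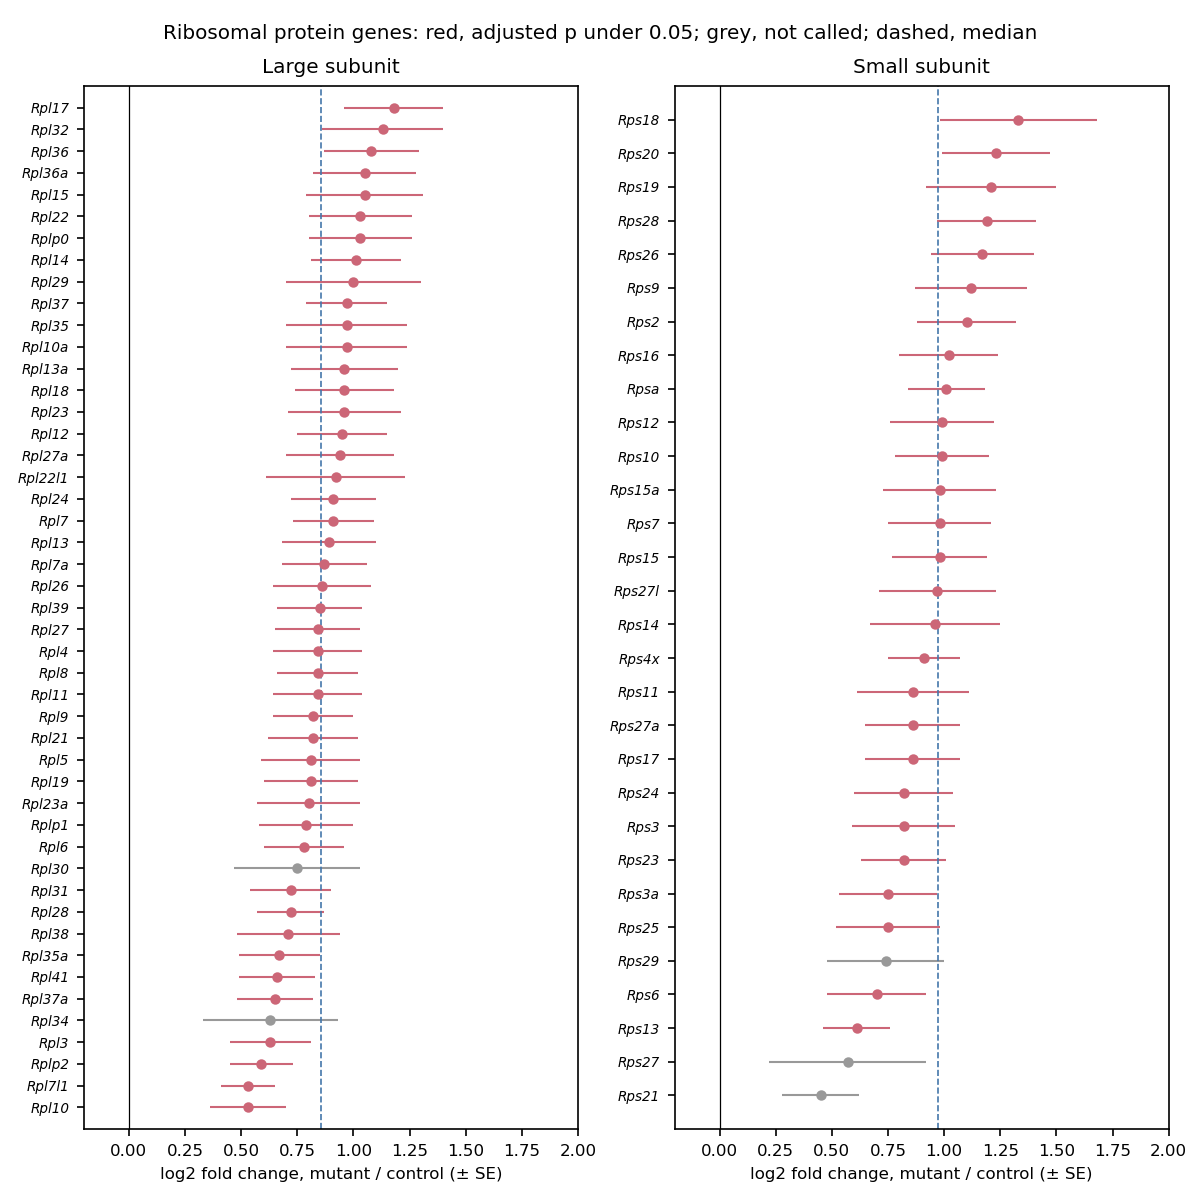
Log2 fold change, mutant over control, with its standard error (x axis) for 47 of 48 tested large-subunit and 30 of 32 tested small-subunit members (y axis). Red points passed an adjusted p of 0.05, grey points did not, and dashed lines mark the medians of all tested members, 0.86 and 0.97. All points lie above 0.

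Rps18, Rps20 and Rps19 were among the 5 members with the largest rises. Rps18, in the head of the small subunit (chromosome 17, positions 33951999 to 33956001 of GRCm38), was at 187, 187, 303 and 218 CPM in controls 1 to 4 and 297, 908, 805, 404 and 408 CPM in mutants 1 to 5. Mutant 1 was below control 3, so its groups overlapped. It had a log2 fold change of 1.33 ± 0.35 (SE; edgeR adjusted p = 0.0187), a call lost without control 1, control 2 or mutant 3. Among mutants Rps18 also had the largest within-group SD of log2 CPM, 0.70, against a median of 0.35 over members.

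Rps20 and Rps19 rose with the groups apart. Rps20, also in the head of the small subunit, was at 67.3 ± 11.6 CPM (controls, SD, n = 4) and 159 ± 45.4 CPM (mutants, SD, n = 5). It rose by a log2 fold change of 1.23 ± 0.24 (SE; edgeR adjusted p = 0.00623). Rps19, the gene most often mutated in Diamond-Blackfan anaemia, was at 202, 206, 302 and 243 CPM in controls 1 to 4 and 312, 805, 738, 465 and 439 CPM in mutants 1 to 5. Its lowest mutant, at 312 CPM, was just above its highest control, at 302. The log2 fold change of Rps19 was 1.21 ± 0.29 (SE; edgeR adjusted p = 0.0131). Rps26, another anaemia gene (chromosome 10, positions 128624534 to 128626747 of GRCm38), was at 122, 166, 201 and 144 CPM in controls 1 to 4 and 241, 453, 437, 309.7 and 332 CPM in mutants 1 to 5. It rose by a log2 fold change of 1.17 ± 0.23 (SE; edgeR adjusted p = 0.00623), and the calls of Rps20, Rps19 and Rps26 were kept in each fit without 1 library.

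The stalk proteins of the large subunit, which recruit elongation factors, rose to different extents. Rplp0, the base of the stalk (chromosome 5, positions 115559467 to 115563727 of GRCm38), was at 559.5, 501, 808 and 651 CPM in controls 1 to 4 and 945, 1642, 1548, 1107 and 1181 CPM in mutants 1 to 5. Every mutant was above every control, and the log2 fold change was 1.03 ± 0.23 (SE; edgeR adjusted p = 0.00989). Rplp1 was at 103 ± 18.2 CPM (controls, SD, n = 4) and 178 ± 44.4 CPM (mutants, SD, n = 5), with a log2 fold change of 0.79 ± 0.21 (SE; edgeR adjusted p = 0.0203). Mutant 1, at 120 CPM, lay below control 3, at 122, so the groups of Rplp1 overlapped, and the call was lost without control 1, control 4 or mutant 3. Rplp2 was at 64.4 ± 8.22 CPM (controls, SD, n = 4) and 96.7 ± 9.31 CPM (mutants, SD, n = 5), with a log2 fold change of 0.59 ± 0.14 (SE; edgeR adjusted p = 0.0118). Rpsa, a small-subunit protein also known as a laminin receptor, was at 132, 114, 172 and 132 CPM in controls 1 to 4 and 215, 331, 304, 258 and 279 CPM in mutants 1 to 5. It rose by a log2 fold change of 1.01 ± 0.17 (SE; edgeR adjusted p = 0.00398) with the groups apart.

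Members with known roles beyond protein synthesis were also higher. Rpl5 and Rpl11 can, with a small ribosomal RNA, bind and block the p53 ligase Mdm2. Rpl5 was at 357 ± 95.1 CPM (controls, SD, n = 4) and 626 ± 116 CPM (mutants, SD, n = 5), and Rpl11 was at 143 ± 23.4 CPM (controls, SD, n = 4) and 255 ± 58.9 CPM (mutants, SD, n = 5). Their log2 fold changes were 0.81 ± 0.22 and 0.84 ± 0.20 (SE; edgeR adjusted p = 0.0197 and 0.0131). The call of Rpl5 was lost without control 1, control 4 or mutant 3, and that of Rpl11 in no fit without 1 library. Rps3, at the entry of the messenger channel and also linked to DNA repair, was at 360 ± 61.5 CPM (controls, SD, n = 4) and 635 ± 174 CPM (mutants, SD, n = 5), a log2 fold change of 0.82 ± 0.23 (SE; edgeR adjusted p = 0.0228). Rpl13a, which can silence inflammatory messengers once released from the ribosome, was at 279 ± 47.5 CPM (controls, SD, n = 4) and 541 ± 163 CPM (mutants, SD, n = 5), a log2 fold change of 0.96 ± 0.24 (SE; edgeR adjusted p = 0.0153). The call of Rps3 was lost without control 1, control 4 or mutant 3, and that of Rpl13a without control 2 or mutant 3. Rps27a, made as a fusion to ubiquitin, was at 198 ± 26.9 CPM (controls, SD, n = 4) and 359 ± 91.4 CPM (mutants, SD, n = 5), a log2 fold change of 0.86 ± 0.21 (SE; edgeR adjusted p = 0.0134).

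Rps6 and Rpl10 were among the smaller rises. Rps6, the target of S6 kinases below mTORC1 (chromosome 4, positions 86854660 to 86857412 of GRCm38), was at 481, 723, 577 and 462 CPM in controls 1 to 4 and 642, 1131, 1093, 852 and 822 CPM in mutants 1 to 5. Mutant 1, at 642 CPM, was below control 2, at 723. The log2 fold change of Rps6 was 0.70 ± 0.22 (SE; edgeR adjusted p = 0.0363). Rpl10, which joins the large subunit late in its assembly (chromosome X, positions 74270812 to 74273135 of GRCm38), was at 511, 466, 581 and 475 CPM in controls 1 to 4 and 568, 902, 839, 682 and 679.9 CPM in mutants 1 to 5. Its mutant 1 library lay below control 3. The log2 fold change of Rpl10 was 0.53 ± 0.17 (SE; edgeR adjusted p = 0.0414). Both calls were fragile, since leaving out 1 library ended that of Rps6 in 7 of 9 fits, up to an adjusted p of 0.103, and that of Rpl10 in 8 of 9, up to 0.14.

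Rpl3 and Rpl4, large-subunit proteins near the catalytic centre and the exit tunnel, differed in their spread within controls. Rpl4 was at 796, 903, 957 and 757 CPM in controls 1 to 4 and 1115, 1938, 1761, 1460.5 and 1384 CPM in mutants 1 to 5. All mutants were above all controls, with a log2 fold change of 0.84 ± 0.20 (SE; edgeR adjusted p = 0.0128). Rpl3 was at 493 ± 19.2 CPM (controls, SD, n = 4) and 763 ± 169 CPM (mutants, SD, n = 5), and its log2 CPM SD within controls, 0.06 against 0.16 for Rpl4, was the smallest of the members. Within mutants the SDs were 0.32 and 0.31. The gene had a log2 fold change of 0.63 ± 0.18 (SE; edgeR adjusted p = 0.0281), lost in 7 of 9 fits without 1 library. Rpl29 and Rps27 had the largest SD within controls, 0.66 and 0.74, against a median of 0.24. Rpl29 was at 29.3, 36.6, 81.2 and 32.9 CPM in controls 1 to 4 and 102, 85.3, 89.5, 66.7 and 105 CPM in mutants 1 to 5, so control 3 alone lay in the range of the mutants. It rose by a log2 fold change of 1.0 ± 0.30 (SE; edgeR adjusted p = 0.0323), lost in 6 of 9 such fits.

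A few members followed another order of libraries. The 8 whose highest library was mutant 5 were Rpl29, Rpl37, Rpl37a, Rpl38, Rpl39, Rps21, Rps28 and Rps29, named after their values were seen. Rps28, a small protein at the messenger exit (chromosome 17, positions 33819027 to 33824562 of GRCm38), was at 18.2, 26.6, 28.5 and 22.8 CPM in controls 1 to 4 and 57.4, 41.8, 49.8, 46.2 and 78.5 CPM in mutants 1 to 5. Mutant 2, the highest library of most members, was here the lowest mutant. The gene had a log2 fold change of 1.19 ± 0.22 (SE; edgeR adjusted p = 0.00492). Rpl38, whose loss in mice alters the translation of Hox messengers (chromosome 11, positions 114668524 to 114672331 of GRCm38), was at 55.0, 98.2, 94.3 and 66.9 CPM in controls 1 to 4 and 146, 105, 115, 102 and 175 CPM in mutants 1 to 5, a log2 fold change of 0.71 ± 0.23 (SE; edgeR adjusted p = 0.0395). The 5 mutants of Rpl38 lay above the controls, mutants 2 and 4 only slightly. This call was lost in 5 of 9 fits without 1 library.

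Messenger length was set beside that order. The transcript taken for each gene (coding, ranked by APPRIS and CCDS, then the shortest) had a median length of 705 bases, from 271 (Rps28) to 3706 (Rps20). The median was 476 bases for the 8 members highest in mutant 5, 499 for the 9 highest in mutant 3 and 799 for the 63 highest in mutant 2. For the 10 shortest messengers the median deviation was 0.85 in mutant 2 and 1.06 in mutant 5, and for the other 70 it was 1.26 and 0.78. Of these 10, 6 were highest in mutant 2 and 4 in mutant 5, and 6 were called, against 69 of the 70. The 99 other tested genes of that length or shorter had a median deviation of -0.12 in mutant 2 and -0.01 in mutant 5. Of these 99, 16 were called higher. Across the 80 members Spearman's rho between length and deviation was 0.42 in control 1, -0.22 in each of controls 2 and 3, and 0.08 in control 4. Among mutants 1 to 5 it was -0.05, 0.21, 0.14, 0.20 and -0.09. Over the log2 fold change it was 0.14. These are descriptions across genes, which share libraries and are not independent replicates, and the part of length in the library order was not tested.

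Rpl30, Rpl34, Rps21, Rps27 and Rps29 were not called. Rps29, a zinc-binding small-subunit protein (chromosome 12, positions 69157722 to 69159186 of GRCm38), was at 41.0, 72.4, 64.5 and 51.1 CPM in controls 1 to 4 and 109, 65.2, 89.7, 72.9 and 140.5 CPM in mutants 1 to 5. Mutant 2 fell within the controls and mutant 5 was highest. Its log2 fold change was 0.74 with an approximate 95% interval of 0.23 to 1.24 (edgeR adjusted p = 0.0504). Rps27 was at 167, 250.1, 258 and 86.1 CPM in controls 1 to 4 and 214, 408, 231, 189 and 373 CPM in mutants 1 to 5, and control 4, at 86.1 CPM, stood far below the other libraries. Its log2 fold change was 0.57, with an interval of -0.12 to 1.26 (edgeR adjusted p = 0.225). Rps21 had values of 38.2 ± 7.18 CPM (controls, SD, n = 4) and 52.2 ± 8.07 CPM (mutants, SD, n = 5) and a log2 fold change of 0.45 with an interval of 0.12 to 0.78 (edgeR adjusted p = 0.0659). For Rpl30 and Rpl34 the log2 fold changes were 0.75 and 0.63, with intervals of 0.20 to 1.29 and 0.03 to 1.23 (edgeR adjusted p = 0.0637 and 0.132). The interval of Rpl34 leaves out 0 though its unadjusted edgeR p was 0.0654. These intervals are thus narrower than the test, and one that leaves out 0 does not show a change. The intervals of Rpl30, Rpl34, Rps27 and Rps29 hold the members' median of 0.90, and that of Rps21 ends below it. In Rps21 every mutant was above every control. Other tools called some of these: limma-voom Rpl30, Rps21 and Rps29 (adjusted p = 0.0124, 0.0267 and 0.013), and DESeq2 Rps29 (adjusted p = 0.0485). Neither tool called Rpl34 or Rps27. Leaving out control 2 brought Rpl30 to an edgeR adjusted p of 0.0337, and leaving out mutant 2 or mutant 4 brought Rps29 to 0.0343 or 0.047. With the ribosomal protein genes left out of the TMM scaling Rps29 was at 0.0489.

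**Figure D4:**
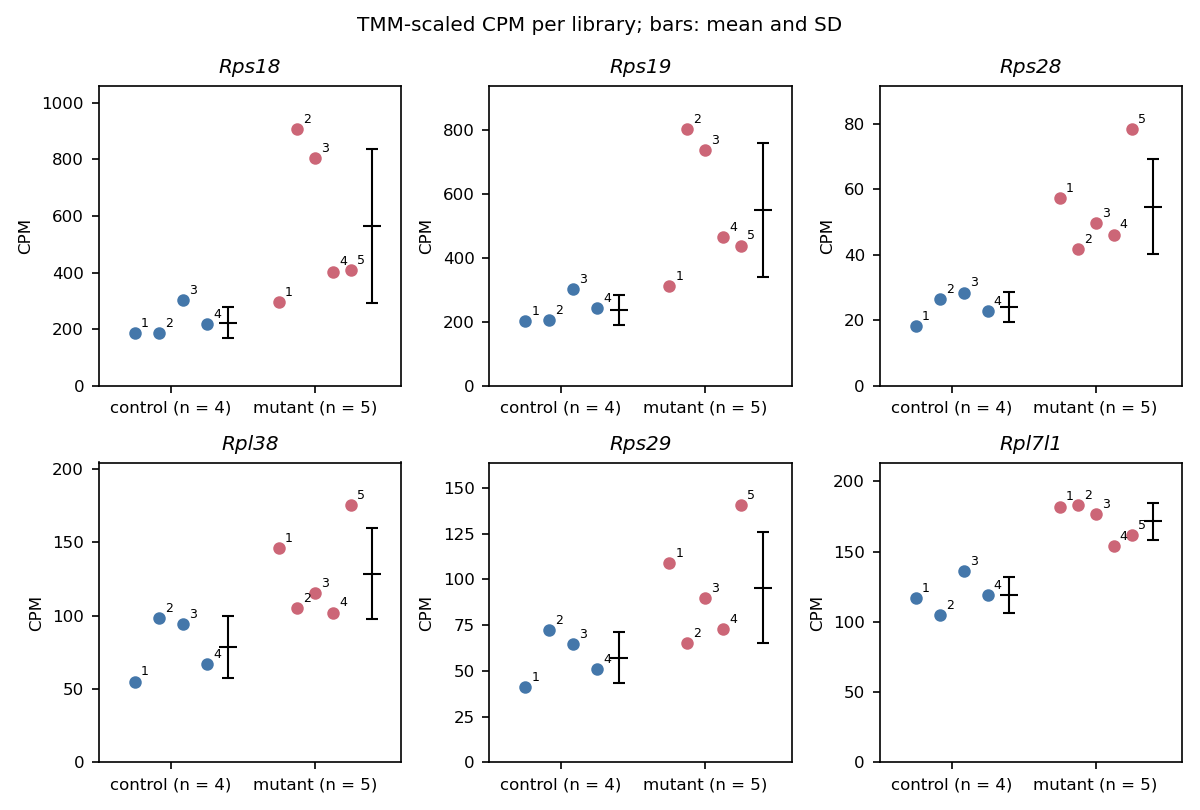
TMM-scaled CPM (y axis) in 4 control and 5 mutant libraries (points with replicate numbers; bars show the mean and SD) for 6 members. Rps18 and Rps19 were highest in mutants 2 and 3, Rps28, Rpl38 and Rps29 in mutant 5, and Rpl7l1 was even across mutants at 154 to 183 CPM.

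Per kilobase of transcript, the members kept their order between groups. The median was 190 CPM per kilobase in controls and 343 in mutants, and Spearman's rho of the order across the 80 members was 0.98. The highest in controls were Rps6, Rps14 and Rpl10, at 639, 637 and 636 CPM per kilobase. In mutants they were Rps14, Rpl32 and Rpl13, at 1237, 1142 and 1049. These levels rest on 1 annotated transcript per gene. Log2 fold changes did not follow the control level across members, with a Pearson correlation of 0.02.

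Several symbols name a second gene beside a standard form. Of the 6 members with the suffix l or l1, Rpl10l and Rpl39l, known from testis, were at 0 counts in all 9 libraries. Rpl3l, known from heart and skeletal muscle, had 0 counts in each control and 7, 2, 1, 1 and 0 in mutants 1 to 5, and was too low to be tested. Rpl7l1, Rpl22l1 and Rps27l were all expressed and all higher in mutants. The longest stretch shared with the standard form's transcript was 10 bases for Rpl7l1, 26 for Rpl22l1 and 11 for Rps27l.

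Rpl7l1, linked to early assembly of the large subunit (chromosome 17, positions 46773907 to 46782672 of GRCm38), was at 117, 105, 136 and 119 CPM in controls 1 to 4 and 182, 183, 177, 154 and 162 CPM in mutants 1 to 5. The groups were apart, with a within-mutant SD of 0.11 in log2 CPM that was the smallest of the members. The gene had a log2 fold change of 0.53 ± 0.12 (SE; edgeR adjusted p = 0.0126), a call lost without mutant 2 or mutant 3. The standard form Rpl7 was at 248, 315, 344 and 266 CPM in controls 1 to 4 and 434, 665, 617, 512 and 520.2 CPM in mutants 1 to 5, a log2 fold change of 0.91 ± 0.18 (SE; edgeR adjusted p = 0.00608). The log2 ratio of Rpl7l1 to Rpl7 counts was -1.29 ± 0.22 (SD, n = 4) in controls and -1.67 ± 0.24 (SD, n = 5) in mutants. The difference was -0.37 (exact two-sided permutation p = 0.0476, adjusted over 4 pairs 0.0952). Mutant 1 lay among the controls, and the other mutants were below all of them.

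Rpl22l1, a second form of the RNA-binding Rpl22, was the more abundant per length in controls, at 136 against 60.6 CPM per kilobase. Per library, Rpl22l1 was at 66.4, 77.1, 92.4 and 64.6 CPM in controls 1 to 4 and 76.6, 229, 189.6, 99.6 and 116 CPM in mutants 1 to 5. Mutant 1 lay within the controls, and mutants 2 and 3 were highest. It had a log2 fold change of 0.92 ± 0.31 (SE; edgeR adjusted p = 0.0476), lost in 7 of 9 fits without 1 library. Rpl22 was at 28.7 ± 6.03 CPM (controls, SD, n = 4) and 58.9 ± 15.5 CPM (mutants, SD, n = 5), a log2 fold change of 1.03 ± 0.23 (SE; edgeR adjusted p = 0.0102), kept in all of them. The log2 count ratio was 1.39 ± 0.15 (SD, n = 4) in controls and 1.20 ± 0.28 (SD, n = 5) in mutants, a difference of -0.20 that did not pass (exact permutation p = 0.238, adjusted 0.238).

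Rps27l, a p53 target, was at 104, 217, 159 and 99.7 CPM in controls 1 to 4 and 205, 331, 339, 288 and 257 CPM in mutants 1 to 5. Control 2 was above mutant 1, and the other mutants were above all controls. Its log2 fold change was 0.97 ± 0.26 (SE; edgeR adjusted p = 0.02), a call lost without control 1 or control 4. The log2 ratio to Rps27 was -0.34 ± 0.43 (SD, n = 4) and 0.05 ± 0.51 (SD, n = 5), a difference of 0.40 that did not pass (exact permutation p = 0.238, adjusted 0.238). It ranged from 0.26 to 0.58 when libraries were left out in turn.

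Of the related genes just outside the rule, Rps4y2 and Rpl36al were not called. Rps4y2, the older symbol of Rps4l, which GENCODE lists as a transcribed processed pseudogene (chromosome 6, positions 148354656 to 148355598 of GRCm38), was at 17.0, 19.8, 18.5 and 19.3 CPM in controls 1 to 4 and 20.2, 8.36, 8.80, 14.9 and 14.4 CPM in mutants 1 to 5. Mutant 1 was slightly above the controls, and mutants 2 and 3 were lowest. Its log2 fold change was -0.48 ± 0.26 (SE; edgeR adjusted p = 0.173). Rps4x, the X-linked standard form, was at 191, 191, 241 and 182 CPM in controls 1 to 4 and 299, 445, 417, 369 and 359 CPM in mutants 1 to 5, with all mutants higher and a log2 fold change of 0.91 ± 0.16 (SE; edgeR adjusted p = 0.00435). Their log2 count ratio was -3.42 ± 0.22 (SD, n = 4) in controls and -4.88 ± 0.76 (SD, n = 5) in mutants, so each of the 5 mutants was below each control. The difference, -1.46, had the smallest p this test can give over 126 regroupings, doubling the smaller tail (exact two-sided permutation p = 0.0159). It did not pass after adjustment over the 4 pairs (0.0635). With Rpl36al to Rpl36a added as a pair, a choice made after its values were seen, the adjusted p over the 5 pairs was 0.0397. The groups of the added pair were already seen to be apart, which gives the smallest p. The lower value thus follows from the choice of pair and adds no support. The longest stretch shared by the Rps4y2 and Rps4x transcripts was 35 bases.

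Rpl36al was at 159.9, 269.6, 184 and 144 CPM in controls 1 to 4 and 155, 195, 189.8, 171 and 169 CPM in mutants 1 to 5, with control 2 the highest library, a log2 fold change of -0.11 ± 0.19 (SE; edgeR adjusted p = 0.677). Its standard form Rpl36a, on the X chromosome, was at 46.9, 67.2, 74.8 and 55.3 CPM in controls 1 to 4 and 81.6, 171, 153, 108 and 121 CPM in mutants 1 to 5, and rose by a log2 fold change of 1.05 ± 0.23 (SE; edgeR adjusted p = 0.0102). The log2 count ratio of the pair was 1.61 ± 0.33 (SD, n = 4) in controls and 0.52 ± 0.29 (SD, n = 5) in mutants, with no overlap between groups. The pair lies outside the rule and was not among the 4 tested. Tested after its values were seen, its difference of -1.10 had the smallest p possible in this test (exact two-sided permutation p = 0.0159, adjusted over 5 pairs 0.0397). Groups already seen to be apart always give that p, so the test adds no support. Taken as counts and not per length, Rpl36al had 3.06 times as many as Rpl36a in controls and 1.43 times in mutants.

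**Figure D5:**
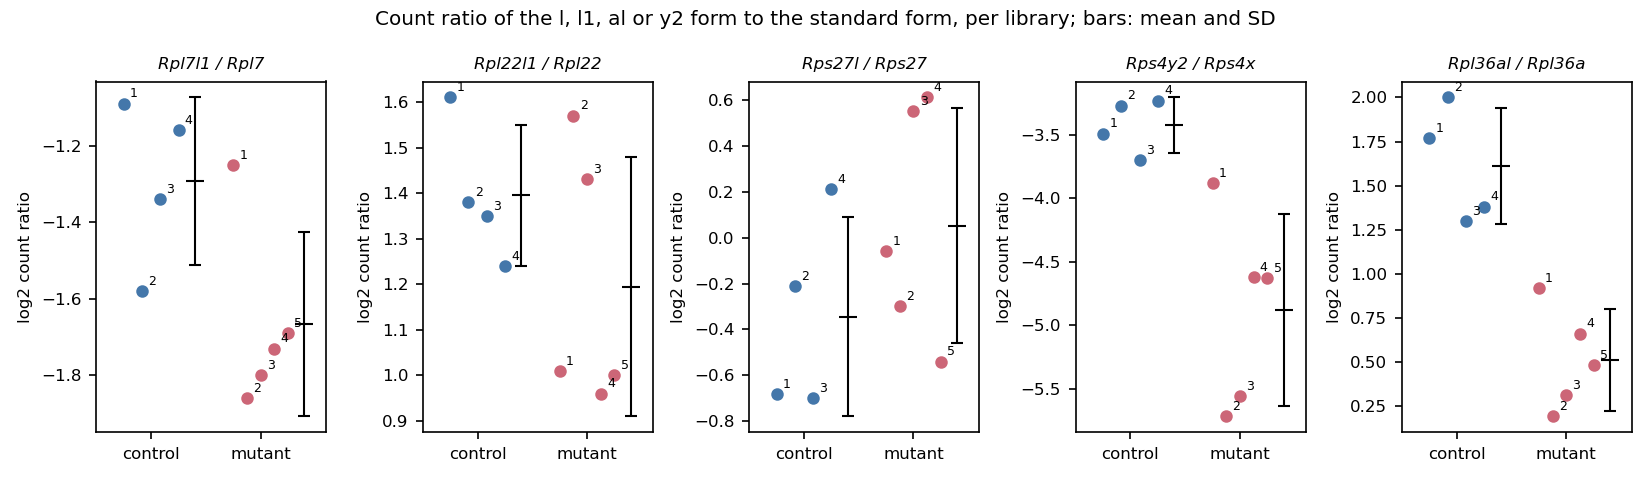
Log2 ratio of counts of the second form to its standard form (y axis, separate scale per panel) in each library (points with replicate numbers; bars show the mean and SD). Groups overlap for Rpl7l1, Rpl22l1 and Rps27l, and are apart for Rps4y2 (-3.42 and -4.88 on average) and Rpl36al (1.61 and 0.52).

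Many members have processed copies in the genome. Of the 50-base windows of a member's transcript, a median of 55.4% also occurred in a transcript of another GENCODE gene. Of the 48 members with at least 50% shared windows, 46 were higher, with a median log2 fold change of 0.86. All 4 members under 10% were higher, with a median of 1.03. Among standard forms of the ratios, the shared windows were 98.6% for Rps27, 85.5% for Rpl36a, 72.2% for Rps4x, 53.3% for Rpl7 and 24.5% for Rpl22. Among second forms they were 63.3% for Rpl36al, 57.3% for Rpl22l1, 22.4% for Rps27l, 18.0% for Rps4y2 and 12.2% for Rpl7l1. The sources used here do not state how the counting treated such reads. Single values of members with close copies are uncertain, as are the form ratios that use them.

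Ribosomal subunits with other names rose as well. Fau, whose product carries Rps30, was at 177 ± 24.4 CPM (controls, SD, n = 4) and 302 ± 71.2 CPM (mutants, SD, n = 5), a log2 fold change of 0.77 (edgeR adjusted p = 0.0161). The call of Fau was lost without control 1 or mutant 3. Gnb2l1, the small-subunit scaffold also called Rack1, was at 195 ± 38.6 CPM (controls, SD, n = 4) and 378 ± 44.6 CPM (mutants, SD, n = 5), a log2 fold change of 0.95 (edgeR adjusted p = 0.00465). Of 24 other TOP messengers, mostly translation factors, 17 were higher (70.8%) and 0 lower, against 20.6% and 11.8% of all genes, with a median log2 fold change of 0.82. Btf3, which escorts nascent chains, was at 124 ± 18.5 CPM (controls, SD, n = 4) and 269.6 ± 45.6 CPM (mutants, SD, n = 5) and Eif3l, an initiation factor subunit, at 149 ± 18.8 CPM (controls, SD, n = 4) and 261 ± 16.3 CPM (mutants, SD, n = 5), with log2 fold changes of 1.13 and 0.81 (edgeR adjusted p = 0.00268 and 0.00326). Vim had the lowest value, -1.28, and was not called.

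Of 22 ribosome assembly factors and ribosomal protein chaperones 11 were higher, 1 was lower, and the median was 0.58, against 20.6% and 11.8% called and a median of 0.04 over all genes. The 2 of lowest p were Ltv1 and Bysl. Ltv1, which matures the small subunit, was at 34.7 ± 6.06 CPM (controls, SD, n = 4) and 65.3 ± 4.25 CPM (mutants, SD, n = 5), a log2 fold change of 0.91 (edgeR adjusted p = 0.00298). Bysl, another small-subunit assembly factor, was at 32.4 ± 3.32 CPM (controls, SD, n = 4) and 53.2 ± 4.76 CPM (mutants, SD, n = 5), a log2 fold change of 0.71 (edgeR adjusted p = 0.00464). The lower gene, Tsr2, a chaperone of Rps26, had a log2 fold change of -0.77 (edgeR adjusted p = 0.012). Of 76 mitochondrial ribosomal protein genes 37 were higher (48.7%) and 1, Mrps12, was lower, with a median of 0.52. The 2 of lowest p were Mrpl37, at 49.5 ± 10.7 CPM (controls, SD, n = 4) and 131 ± 19.3 CPM (mutants, SD, n = 5), and Mrpl38, at 42.9 ± 3.09 CPM (controls, SD, n = 4) and 81.7 ± 9.73 CPM (mutants, SD, n = 5), with log2 fold changes of 1.40 and 0.93 (edgeR adjusted p = 0.00185 and 0.00242).

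Of 24 genes of mTORC1 signalling and TOP control 4 were higher (16.7%) and 1 lower (4.17%), near or below the 20.6% and 11.8% of all genes, with a median of -0.11. The higher genes were Larp1, Eif4ebp1, Akt1s1 and Eif4a1, the first 2 being those of lowest p. Larp1, which binds the cap and first pyrimidines of TOP messengers, was at 89.2 ± 4.74 CPM (controls, SD, n = 4) and 207 ± 36.5 CPM (mutants, SD, n = 5), a log2 fold change of 1.21 ± 0.15 (SE; edgeR adjusted p = 0.00169). Eif4ebp1, an mTORC1 target that blocks initiation, was at 146 ± 34.5 CPM (controls, SD, n = 4) and 318 ± 55.1 CPM (mutants, SD, n = 5), a log2 fold change of 1.12 (edgeR adjusted p = 0.00434). Both calls were kept in each fit without 1 library. The lower gene was Tial1, an RNA-binding protein that represses TOP messengers, with a log2 fold change of -1.87 (edgeR adjusted p = 0.0234), and -1.0 (0.0306) without control 2, which stood far above the other controls. Of 15 ribosome stress and quality control genes 4 were higher (26.7%) and 0 lower, a share near that of all genes, with a median of 0.07. The largest log2 fold change among them was that of Trp53, 0.91 (edgeR adjusted p = 0.022), and Mdm2 was also higher. The 2 of lowest p were Usp10, a deubiquitinase acting on stalled small subunits, at 46.2 ± 7.36 CPM (controls, SD, n = 4) and 81.2 ± 18.7 CPM (mutants, SD, n = 5), and Hbs1l, which rescues stalled ribosomes, at 132 ± 5.27 CPM (controls, SD, n = 4) and 183 ± 13.9 CPM (mutants, SD, n = 5), with log2 fold changes of 0.81 and 0.47 (edgeR adjusted p = 0.0136 and 0.0139). Without 1 library the call of Usp10 was lost once (mutant 3), that of Hbs1l in 2 fits (mutants 2 and 3), that of Eif4a1 in 2 (control 1 and mutant 3), that of Mrps12 in 3 (controls 1 and 3 and mutant 5), that of Trp53 in 4 (controls 1 and 2 and mutants 2 and 3) and that of Mdm2 in 7. Akt1s1, Eif4a1, Tsr2, Mrps12, Tial1, Trp53 and Mdm2 were named after their values were seen.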

How the data were processed

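The authors deposited whole-number counts per gene symbol for 9 libraries, without normalization. Per the submitters' processing notes, the project used the aligners STAR and Bowtie2, the tools RSEM, HOMER, Cell Ranger, Signac, Seurat and DESeq2, R 4.1.0 and build mm10. Which of them made these counts, the annotation and any use of strand are not given in the sources used here. Per the labels' protocols, RNA was column-extracted for a low-input library kit. Groups and replicate numbers came from titles and genotype labels. No library was a copy of another within its group, with a chi-square per degree of freedom of at least 18.1.

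Mutant was compared with control by edgeR 4.0.16 (R 4.3.3, two-sided quasi-likelihood test) with TMM scaling. The filter filterByExpr kept 12402 genes, over which p-values were adjusted by Benjamini-Hochberg, with a threshold of 0.05. A standard error is the log2 estimate without shrinkage over the root of its F value. The 95% intervals of log2 fold changes are 1.96 standard errors to either side. This is a normal approximation, too narrow for so few libraries. Log2 CPM used a prior count of 2. Form ratios used counts plus 0.5 and exact two-sided permutation with the smaller tail doubled, over 4 pairs with at least 30 counts in each form. Rpl36al to Rpl36a also had enough counts but was taken as a description, and was tested only after its values were seen. Positions and transcripts came from GENCODE M21 (GRCm38) and start regions from RefSeq.

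The members and the lists were chosen with earlier results of these data known. Named members were the l and l1 forms with their standard forms, the 5 largest rises among called members, the 5 of highest mean CPM, those of largest spread within each group, a fixed set of 17 with known roles, and up to 2 of lowest p per related list. The 5 uncalled members and those highest in mutant 5 were named after their values were seen, and a part of the named genes is given in full. A few genes are counted but not reported here by name. No member fell. Alternatives were RLE scaling, TMM without hormone or without ribosomal protein genes, no filter, a CPM of at least 1 in 4 libraries, acinar or endocrine scores as covariates, a replicate block, DESeq2 1.42.0, limma-voom (limma 3.58.1) with sample weights, and fits without libraries. For this comparison the scripts were tested on simulated data of 12194 genes, where 18.8% of 96 genes changed 2-fold and 76.3% of 97 changed 4-fold were called. Unchanged genes made up 6.12% of the calls.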

Additional observations from a re-analysis of the deposited data

Results flagged for a closer look

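The log2 ratio of Rpl7l1 to Rpl7 counts was -1.25 in mutant 1 and -1.86 to -1.69 in the other 4 mutants. Its gap to the nearest other mutant was 0.71 of the range of the mutants, just above Dixon's 95% critical value for 5 samples. Tial1 was at a log2 CPM of 8.52 in control 2 and 6.22 to 6.35 in the other controls, a gap of 0.94 of their range. Trp53 was at 5.62 in mutant 4 and 6.28 to 6.48 in the other mutants, a gap of 0.76 of their range. Of 128 groups of values examined in this way 3 stood out, and chance gives about 1 in 20.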

How the results depend on the processing

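Members called higher numbered 75, and 0 were lower in every fit tried. The count was 46 to 74 in fits that left out 1 library (47 without control 1, 46 without mutant 3) and 35 without mutants 2 and 3 together. It was 2 with the endocrine score as a covariate and 0 with the acinar score. Over all genes, 2560 were higher and 1462 lower. Leaving out 1 library gave 1579 to 2702 higher and 699 to 1865 lower, leaving out mutants 2 and 3 gave 1355 higher, the endocrine score 508 higher and 72 lower, and the acinar score 0 and 0 (560 at an unadjusted p under 0.05). DESeq2 called 2555 lower and limma-voom 2294. The causes were not tested. The medians of the large and small subunit were 0.47 and 0.53 with the endocrine score and -0.47 and -0.51 with the acinar score.

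With the acinar score as a covariate, log2 fold changes turned to -0.50 for Rpl10, -0.57 for Rpl11, -0.45 for Rpl13, -0.65 for Rpl13a, -0.43 for Rpl22, -1.52 for Rpl22l1, -0.62 for Rpl3, -0.51 for Rpl4, -0.42 for Rpl5, -0.45 for Rpl6, -0.17 for Rpl7, -0.15 for Rplp0, -0.87 for Rplp1, -1.41 for Rps18, -1.03 for Rps19, -0.38 for Rps20, -0.37 for Rps26, -0.10 for Rps27, -0.62 for Rps27a, -0.77 for Rps27l, -0.85 for Rps3, -0.07 for Rps4x, -0.84 for Rps6, -0.69 for Fau, -0.04 for Gnb2l1, 1.07 for Pdx1, 1.18 for Rps4y2, 0.55 for Tsr2, -0.07 for Eif4ebp1 and -1.19 for Rpl34. Rps4y2 turned to 0.08 with the endocrine score, and Rpl36al to 0.02 without control 2 (-0.22 to 0.02 over fits without 1 library) and 0.05 with limma-voom.

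Adding Rpl36al to Rpl36a to the tested pairs, after its values were seen, moved the adjusted p of the Rps4y2 to Rps4x ratio (-1.46) from 0.0635 to 0.0397. That shift was fixed by the choice of a pair whose groups were seen to be apart. RLE scaling and no low-count filter each ended the calls of Rpl10, Rpl22l1, Rpl3, Rpl38, Rps6 and Mdm2, and no filter that of Hbs1l.

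With the replicate number as a block, 69 members were higher, Rpl34 among them (adjusted p = 0.0482), and 1658 genes were higher and 774 lower over all. The block ended 14 calls of named genes, those of Rpl7l1, Rplp2 and Tial1 among them (edgeR adjusted p = 0.0574, 0.0511 and 0.15). Deviations of same-numbered libraries correlated at 0.05, -0.02, 0.18 and -0.05, and not every library correlated best with its own number, so the numbers were not taken to pair the libraries.

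Depth left Rpl3l untested. With 4 and 5 libraries, changes near 2-fold were often missed on simulated data, where far fewer genes were changed than were called here. No call does not show that a member is equal.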
